A study of Mus musculus with 2 samples.

Results

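The let-7a, let-7c and let-7f microRNAs are each encoded at a pair of mouse loci, and the genes described here are those 6 loci: Mirlet7a-1, Mirlet7a-2, Mirlet7c-1, Mirlet7c-2, Mirlet7f-1 and Mirlet7f-2. They were chosen by gene symbol, as the members of the let-7 family known to give the same mature microRNA from more than 1 locus, and make up 6 of the 2202 microRNA genes in the files. The libraries hold small RNA shorter than 30 nt from the gastrocnemius, a calf muscle, of female B6CASTF1/J mice (offspring of C57BL/6J and CAST/EiJ parents) aged 14 days. There is 1 group with 2 biological replicates. The biosample description of replicate 1 speaks of 3 females and that of replicate 2 of a female in the singular, and both carry the same donor identifier, so the spread between them may be partly technical. With no second tissue, age or treatment, levels are described and no conditions were compared.

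MicroRNAs are cut from a hairpin precursor, which can release a strand from its 5′ arm (5p) and a strand from its 3′ arm (3p). Bases 2 to 8 of the loaded strand, the seed, pair with target messenger RNAs. The let-7 family uses mainly the 5p strand, accumulates as cells differentiate and represses growth and fetal genes such as Hmga2, Igf2bp1 and Ras genes. Its RNA-binding antagonist Lin28 blocks processing by binding the loop of the precursor. Reads that align to more than 1 place enter no gene's count in these files. The count of a duplicated gene is thus a lower bound on the reads it gave, provided each counted read came from that locus.

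All 12 let-7 family 5p strands carried the seed GAGGUAG. The mature 5p strands of the 3 pairs follow, because the whole comparison turns on their identity between loci. Capitals mark the seed, and sequences are from RefSeq on GRCm38.p6.
let-7a-5p: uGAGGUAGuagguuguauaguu
let-7c-5p: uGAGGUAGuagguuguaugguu
let-7f-5p: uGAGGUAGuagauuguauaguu
Counted from 1 at the 5′ end, let-7c-5p differed from let-7a-5p by A19G and let-7f-5p by G12A. Each of these strands occurred in 2 annotated hairpins, the loci of its pair, on the strand of the gene. The 5p strands of the other 6 family genes each occurred in a single hairpin.

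The 3p strands did not repeat the same pairs. They are shown because they decide which loci a read from the 3′ arm can be assigned to, again with bases 2 to 8 in capitals.
let-7a-1-3p: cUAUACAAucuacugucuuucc
let-7a-2-3p: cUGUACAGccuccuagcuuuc
let-7c-1-3p: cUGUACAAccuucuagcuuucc
let-7c-2-3p: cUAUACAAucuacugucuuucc
let-7f-1-3p: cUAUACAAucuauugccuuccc
let-7f-2-3p: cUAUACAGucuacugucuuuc
The 3p strands of Mirlet7a-1 and Mirlet7c-2 were identical over all 22 nt. Those of Mirlet7a-2, Mirlet7c-1, Mirlet7f-1 and Mirlet7f-2 each occurred in 1 annotated hairpin. Mirlet7a-1 and Mirlet7c-2 therefore had neither mature strand to themselves, and the other 4 genes had their 3p strand to themselves.

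The hairpins show how short the repeated part is. Capitals mark the longest stretch shared with the partner locus, 23 nt in the let-7a and let-7c pairs and 22 nt in the let-7f pair. Every stretch begins at the first base of the 5p strand and ends at most 1 base past its last.
Mirlet7a-1: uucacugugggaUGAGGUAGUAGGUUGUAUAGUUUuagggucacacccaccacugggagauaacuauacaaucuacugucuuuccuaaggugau
Mirlet7a-2: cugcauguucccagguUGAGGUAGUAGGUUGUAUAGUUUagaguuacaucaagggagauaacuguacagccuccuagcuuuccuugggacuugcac
Mirlet7c-1: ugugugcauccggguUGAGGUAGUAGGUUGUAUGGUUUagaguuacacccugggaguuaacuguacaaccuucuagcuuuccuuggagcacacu
Mirlet7c-2: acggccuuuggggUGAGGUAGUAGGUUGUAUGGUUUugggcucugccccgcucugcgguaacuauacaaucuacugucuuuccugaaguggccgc
Mirlet7f-1: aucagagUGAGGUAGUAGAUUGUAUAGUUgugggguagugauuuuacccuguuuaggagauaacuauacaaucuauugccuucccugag
Mirlet7f-2: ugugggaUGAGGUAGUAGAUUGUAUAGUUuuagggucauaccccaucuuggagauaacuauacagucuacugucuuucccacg
The longest stretch shared by any of the 15 combinations of these hairpins was not within a pair. It joined Mirlet7a-1 and Mirlet7c-2 over 26 nt of the 3′ arm, uaacuauacaaucuacugucuuuccu. Over the whole hairpin, Mirlet7a-1 was closest to Mirlet7f-2 (79.8% of alignment columns identical) and Mirlet7a-2 to Mirlet7c-1 (79.4%). Identity within the pairs was 68.6% for let-7a, 67.3% for let-7c and 70.8% for let-7f. Among the 6, Mirlet7f-1 was the only gene closest to its own partner. Outside the 6, it was closer still to the family genes Mirlet7b (76.4%) and Mirlet7g (71.1%).

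In the genome (mm10, GENCODE M21) the 6 genes lie on 5 chromosomes. Mirlet7a-1 (chr13:48538179-48538272, minus strand) and Mirlet7f-1 (chr13:48537829-48537917, minus strand) lie 261 nt apart in an exon of the long noncoding RNA gene 6720427I07Rik, together with Mirlet7d. Mirlet7a-2 (chr9:41536716-41536811, plus strand) lies within the noncoding genes 3110039I08Rik and Gm49317 and outside their exons, 5.21 kb from Mir100 and 45.1 kb from Mir125b-1. Mirlet7c-1 (chr16:77599657-77599750, plus strand) has the same kind of surroundings, in an intron of Mir99ahg, 656 nt from Mir99a and 46.5 kb from Mir125b-2. Mirlet7c-2 (chr15:85706603-85706697, plus strand) lies in an exon of Lncppara, 621 nt from Mirlet7b. Mirlet7f-2 (chrX:151912346-151912428, plus strand) lies in an intron of Huwe1, a ubiquitin ligase gene, 785 nt from Mir98, another let-7 family gene.

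Counts were those on the strand of the gene, scaled to 1000000 reads assigned to microRNA genes (CPM). Replicate 1 had 2672454 assigned reads and replicate 2 had 4292012, so 1 read was worth 0.374 and 0.233 CPM. Multiply aligned reads numbered 4219456 and 6352784, or 1.58 and 1.48 per assigned read. Of the skeletal muscle markers, 8 of 9 reached 1 CPM in both replicates, and Mir206, the most muscle-restricted of them, stood at 89900 ± 7361 CPM (SD, n = 2). The neural markers summed to 0 CPM in replicate 1 and 0.932 CPM in replicate 2, with all 3 Mir124a genes, Mir9-1 and Mir9-2 at 0 reads. The Mir124a and Mir9 genes, which make up the neural list, are multi-copy loci, as are the Mir1a and Mir133a pairs of the muscle list. Their counts are subject to the same loss of multiply aligned reads. The low neural sum therefore does not show that neural RNA was absent.

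All 6 genes were detected, at means from 121 to 3710 CPM. Together they held 0.525% of assigned reads in replicate 1 (exact Clopper-Pearson 95% interval 0.516 to 0.534) and 0.458% in replicate 2 (0.451 to 0.464), a mean of 0.491% ± 0.0475 (SD, n = 2). Mirlet7f-2 alone held most of this sum, and the other 5 genes held 25.7% of it in replicate 1 and 23.1% in replicate 2. The intervals cover counting error only. In whole tissue, fewer cells of a type and less RNA per cell cannot be told apart.

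The let-7a loci gave the fewest assigned reads of the 3 pairs. Mirlet7a-1 had 656 reads in replicate 1 and 736 in replicate 2, or 245 and 171 CPM (mean 208 ± 52.3, SD, n = 2). Mirlet7a-2 had 355 and 469 reads, or 133 and 109 CPM (121 ± 16.7). The 2 loci did not overlap, with Mirlet7a-1 above Mirlet7a-2 in both replicates.

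The let-7c loci stood in the opposite order by number, the second above the first. Mirlet7c-1 had 563 reads in replicate 1 and 807 in replicate 2, or 211 and 188 CPM (199 ± 16.0). Mirlet7c-2 had 1572 and 1844 reads, or 588 and 430 CPM (509 ± 112). The lower value of Mirlet7c-2 was more than the higher value of Mirlet7c-1.

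The let-7f loci were the farthest apart. Mirlet7f-1 had 458 reads in replicate 1 and 676 in replicate 2, or 171 and 158 CPM (164 ± 9.81). Mirlet7f-2 had 10422 and 15113 reads, or 3900 and 3521 CPM (3710 ± 268). No other gene of the 6 came within 6-fold of Mirlet7f-2 in either replicate.

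**Figure D1:**
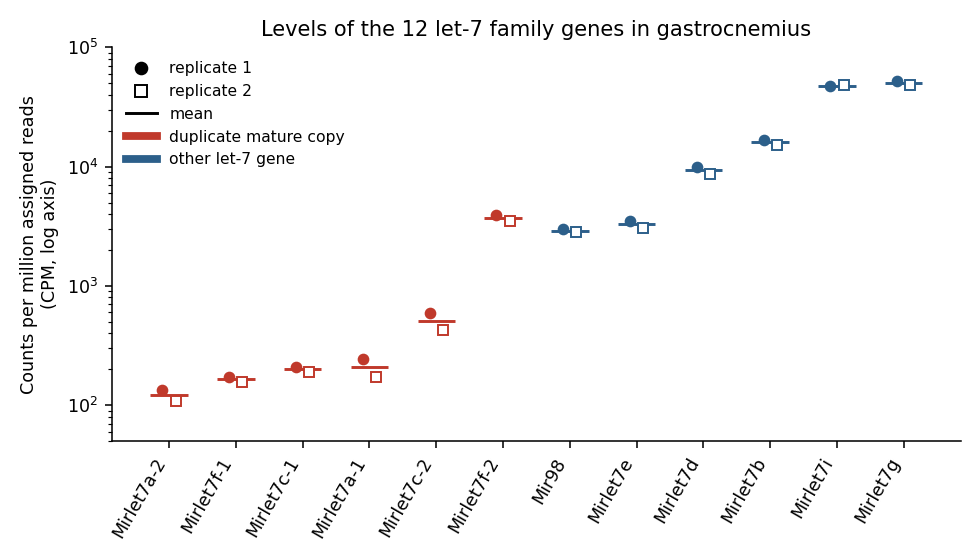
Levels of the 12 let-7 family genes in CPM on a log axis, with a filled circle for replicate 1, an open square for replicate 2 and a line for the mean. Of the 6 genes with duplicate mature copies, 5 lie below every other family gene, and Mirlet7f-2 (3710 CPM) lies above Mir98 and Mirlet7e.

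Ordered by mean level, the genes were Mirlet7f-2, Mirlet7c-2, Mirlet7a-1, Mirlet7c-1, Mirlet7f-1 and Mirlet7a-2. Mirlet7f-2 and Mirlet7c-2 held the first places in both replicates, each separated from the next gene by more than the spread between replicates. Mirlet7a-1 and Mirlet7c-1 changed places between the replicates. Within each replicate Mirlet7a-1 was above Mirlet7f-1, at 245 against 171 CPM in replicate 1 and 171 against 158 CPM in replicate 2. Across the replicates the 2 genes did not differ beyond the spread of Mirlet7a-1. Its value in replicate 2 (171 CPM) equalled that of Mirlet7f-1 in replicate 1 (171 CPM) to 3 digits. Mirlet7a-2 was last in both replicates, below Mirlet7f-1 by more than their spread. A small RNA read covers about a whole mature strand, so CPM is not divided by gene length here. The hairpins measured 83 to 96 nt, and the order was the same per nt of hairpin, from 44.7 CPM per nt for Mirlet7f-2 to 1.26 CPM per nt for Mirlet7a-2.

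The division of reads within each pair needs no scaling between libraries, because both loci were counted in the same library. Mirlet7a-1 gave 64.9% of the let-7a pair's assigned reads in replicate 1 (exact 95% interval 61.9 to 67.8) and 61.1% in replicate 2 (58.3 to 63.8). The intervals overlap, and both lie above an even division. Mirlet7c-1 gave 26.4% of the let-7c pair's reads in replicate 1 (24.5 to 28.3) and 30.4% in replicate 2 (28.7 to 32.2). These intervals do not overlap, so the let-7c division differed between the libraries by more than counting error, by 4.07 percentage points. Mirlet7f-1 gave 4.21% of the let-7f pair's reads in replicate 1 (3.84 to 4.60) and 4.28% in replicate 2 (3.97 to 4.61). This division had the smallest SD of the 3. Its mean was 4.25% ± 0.0508 (SD, n = 2), against 63.0% ± 2.69 for let-7a and 28.4% ± 2.88 for let-7c. The let-7f shares also had the narrowest intervals and those of let-7a overlap, so let-7f was not shown to be steadier than let-7a.

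As a quotient, Mirlet7f-2 had 22.8 times the assigned reads of Mirlet7f-1 in replicate 1 (95% counting interval 20.7 to 25.0) and 22.4 times in replicate 2 (20.7 to 24.2). Mirlet7c-2 had 2.79 times those of Mirlet7c-1 in replicate 1 (2.53 to 3.08) and 2.29 times in replicate 2 (2.10 to 2.49). Mirlet7a-1 had 1.85 times those of Mirlet7a-2 in replicate 1 (1.62 to 2.11) and 1.57 times in replicate 2 (1.40 to 1.77). The larger locus was thus the same in both replicates for each pair. These quotients describe reads assigned to 1 place and need not equal the quotient of the mature microRNAs made.

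**Figure D2:**
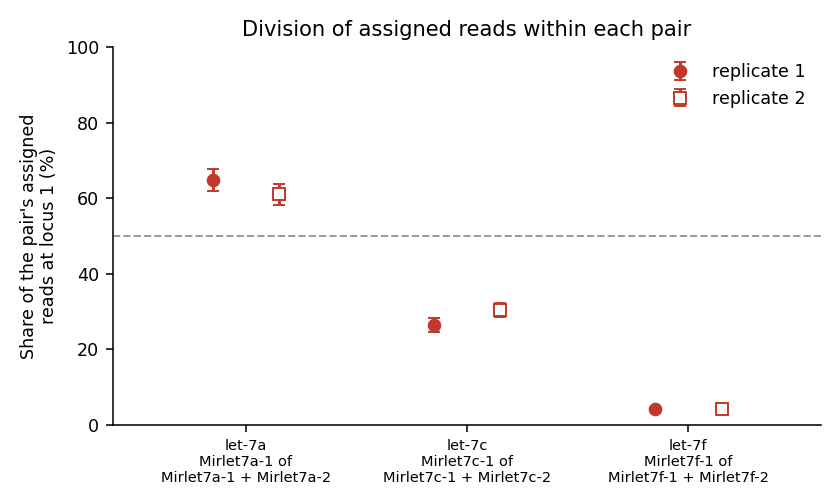
Share of each pair's assigned reads that fell on its first locus, in percent, for both replicates, with exact 95% binomial intervals as bars and a dashed line at an even division. Mirlet7a-1 lies above the line at 64.9% and 61.1%, Mirlet7c-1 below it at 26.4% and 30.4%, and Mirlet7f-1 near 4.25% in both replicates.

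To show which reads could be assigned, every stretch of 22 nt in each hairpin was looked up in all 2202 annotated hairpins on both strands. Of 425 such windows in the 6 hairpins, 405 (95.3%) lay at 1 locus only, against 436 of 436 in the other 6 family genes. The repeated windows sat at the mature strands. At the first base of the 5p strand, the window lay at 2 loci in all 6 genes. At the first base of the 3p strand it lay at 2 loci in Mirlet7a-1 and Mirlet7c-2 and at 1 locus in the other 4.

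Small shifts of the window were enough to change this. Among the 7 starts within 3 nt of the 5p start, 5 gave a window at a single locus in the let-7a and let-7c genes and 6 in the let-7f genes. At the 3p start, 2 of 7 starts did so in Mirlet7a-1 and in Mirlet7c-2, and all 7 in Mirlet7a-2, Mirlet7c-1, Mirlet7f-1 and Mirlet7f-2. Over the whole hairpin, 67 of 68 windows of Mirlet7f-1 and 61 of 62 of Mirlet7f-2 lay at a single locus. For Mirlet7a-1 it was 66 of 73 and for Mirlet7c-2 67 of 74. The part of these differences in the division of reads within pairs was not tested. The files do not say which arm or which end variant the assigned reads came from, and the genome outside annotated hairpins and the CAST/EiJ alleles were not analysed here.

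**Figure D3:**
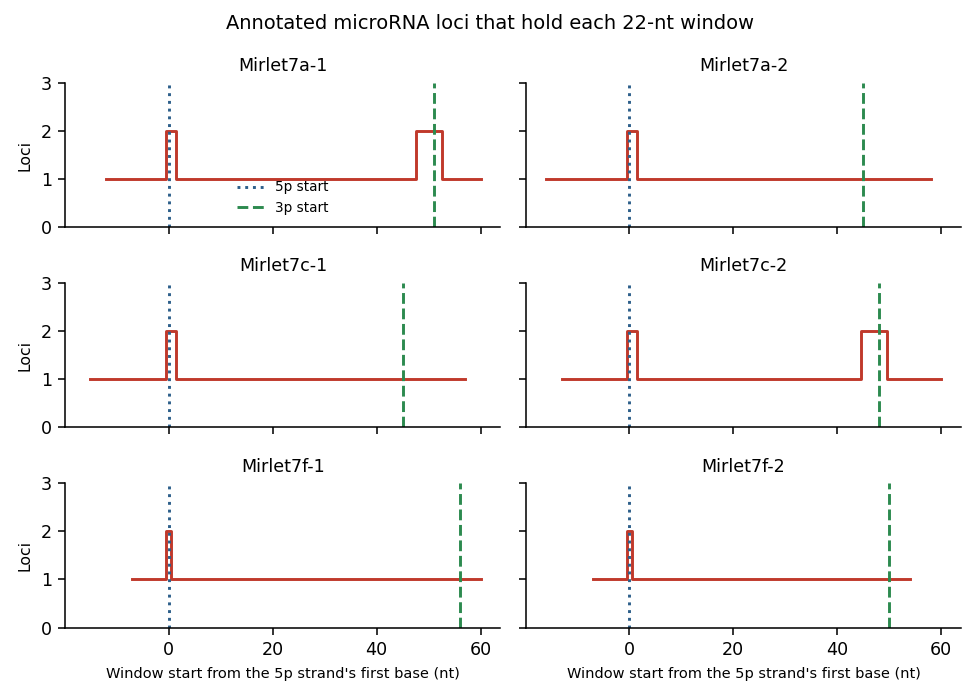
Number of annotated microRNA loci that hold each 22-nt window of the 6 hairpins, by the window's start in nt from the first base of the 5p strand, with a dotted line at the 5p start and a dashed line at the 3p start. The count reaches 2 at the 5p start in all 6 genes, and at the 3p start only in Mirlet7a-1 and Mirlet7c-2.

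The read length bears on this count. At 18 nt, 377 of 449 windows (84.0%) lay at 1 locus. At 24 nt 407 of 413 did, and at 28 nt all 389.

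The line of multiply aligned reads is far larger than the counts of the 6 genes. In replicate 1, 301 multiply aligned reads stood against each assigned read of the 6 genes, and in replicate 2 it was 323. For the other 6 family genes the numbers were 11.9 and 11.8. The same line was divided by the reads of each set, so this contrast reflects only how many assigned reads each set had. That line holds reads of every repeated sequence in the genome, and how many of them are let-7a, let-7c or let-7f was not tested. If each assigned read came from the locus it aligned to, which was not tested, the read counts of the 6 genes are lower limits. Their CPM values are not, because the denominator leaves out multiply aligned reads too: with all reads of the file in the denominator Mirlet7a-1 stood at 71.3 in place of 208.

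Within the family, the 6 genes held 3.80% of let-7 reads in replicate 1 and 3.51% in replicate 2. The other 6 genes, with a 5p strand of their own, ranged from 2910 ± 104 CPM for Mir98 to 50174 ± 3145 CPM for Mirlet7g. Mirlet7f-2 lay inside that range, above Mir98 and Mirlet7e (3276 ± 273 CPM). The remaining 5 genes lay outside it, at 121 to 509 CPM. How far this gap reflects reads lost to multiple alignment was not tested.

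Genes in the same genomic cluster are often made from a common primary transcript, so neighbours on the same strand within 60 kb were set beside each gene. Mirlet7f-2 and Mir98, both in the Huwe1 intron, were close in level, with 0.765 Mir98 reads per Mirlet7f-2 read in replicate 1 and 0.806 in replicate 2. Mir3113, the other gene near Mirlet7f-2, had no read, which allows up to 1.12 CPM in replicate 1 and 0.699 CPM in replicate 2. On chromosome 13, Mirlet7d stood 40.6 and 50.9 times above Mirlet7a-1 and 58.1 and 55.4 times above Mirlet7f-1. Mirlet7a-1 and Mirlet7f-1, 261 nt apart, differed less, with 0.698 and 0.918 Mirlet7f-1 reads per Mirlet7a-1 read.

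Among the remaining neighbours, Mirlet7b, Mir99a and Mir100 stood well above the let-7 gene beside them. Mirlet7b had 28.5 and 35.3 times the reads of Mirlet7c-2. Mir99a had 49.8 and 94.4 times those of Mirlet7c-1, and Mir100 31.9 and 53.3 times those of Mirlet7a-2. Mir99a and Mir100 belong to the miR-99/100 family and each have a mature sequence of their own. Mir125b-1 and Mir125b-2, which encode the same miR-125b, lay less far from their let-7 neighbours, the first above and the second below. Mir125b-1 had 2.49 and 3.21 times the reads of Mirlet7a-2, and Mir125b-2 0.492 and 0.549 times those of Mirlet7c-1.

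The replicates were then compared for each gene, as a ratio of CPM in replicate 2 over replicate 1 with a 95% counting interval. A ratio between single libraries compares those libraries and has no p-value. All 6 genes were lower in replicate 2, where 46.2% of all genes averaging at least 10 CPM (260 genes) were lower. For 5 of the 6 the interval lay below 1, against 25.8% of the 260 and 34.7% of the 176 averaging at least 100 CPM. All 6 averaged at least 100 CPM, and for Mirlet7f-1 the interval included 1. With all reads of the file as denominator it also included 1 for Mirlet7a-2 (0.871, 0.757 to 1.00) and Mirlet7c-1 (0.945, 0.848 to 1.05), which left 3 of the 6. Mirlet7a-1 and Mirlet7c-2 had a ratio below 0.8, as did 8.85% of the 260. In either direction, 58.8% of the 260 had an interval that excluded 1 and 28.5% stood below 0.8 with the ratio taken either way round, against 5 and 2 of the 6 genes, so intervals of this kind often exclude 1 between these libraries.

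The lowest ratios belonged to the 2 genes that share their 3p strand. Mirlet7a-1 stood at 0.699 (0.628 to 0.777) and Mirlet7c-2 at 0.730 (0.682 to 0.782). Mirlet7a-2 stood at 0.823 (0.715 to 0.947) and Mirlet7c-1 at 0.893 (0.800 to 0.996). Mirlet7f-2 stood at 0.903 (0.881 to 0.926) and Mirlet7f-1 at 0.919 (0.815 to 1.04). The intervals of Mirlet7a-1 and Mirlet7c-2 lie below those of Mirlet7c-1, Mirlet7f-1 and Mirlet7f-2 and overlap that of Mirlet7a-2. That these are the genes with a shared 3p strand was noticed after the values were seen.

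The median ratio of the 6 genes was 0.857, beside 1.03 over the 260 genes. The other 6 let-7 genes had a median of 0.909, and 5 of them were lower in replicate 2, each with an interval below 1. Mirlet7i was the exception at 1.02 (1.01 to 1.03). Among genes outside the family and its neighbours that averaged at least 100 CPM, those nearest in ratio to the median of the 6 were Mir378a (0.856), Mir320 (0.861) and Mir425 (0.853). This likeness rests on 2 libraries. Summed leukocyte markers were also lower in replicate 2, at 853 against 1185 CPM, with 4 of 5 at 1 CPM or more in both and Mir142b at 0. Mir142, Mir150 and Mir155 had ratios of 0.770, 0.766 and 0.592, and Mir223 one of 1.03 (0.898 to 1.19). Both erythroid markers, at 185 against 437 CPM in sum, and the hepatocyte marker Mir122, at 14.2 against 229 CPM, were lower there as well. The endothelial sum, in which only Mir126a reached 1 CPM in both, was 119268 against 118725 CPM. The fibroblast and smooth muscle sum was higher in replicate 2, at 25400 against 24293 CPM. Of its members, Mir143 stood at 1.04 and Mir214 at 1.11, but Mir145a at 0.947 and Mir199a-2 at 0.996. The skeletal muscle sum was 85876 against 96325 CPM. In assigned reads, the muscle sum was nearly all Mir206 (ratio 0.891). The Mir1a and Mir133a pairs in it are duplicate loci, counted only by reads that align to 1 place. Their counts and ratios need not be those of the mature microRNAs. Members of the muscle sum did not all lie on the same side of 1. Mir1a-2 stood at 0.693 and Mir486 at 0.837, but Mir499 at 1.31 (1.19 to 1.45) and Mir208b at 1.83 (1.56 to 2.14), with Mir133b at 1.22 (0.903 to 1.66). The part of these other cells in the let-7 ratios was not tested.

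**Figure D4:**
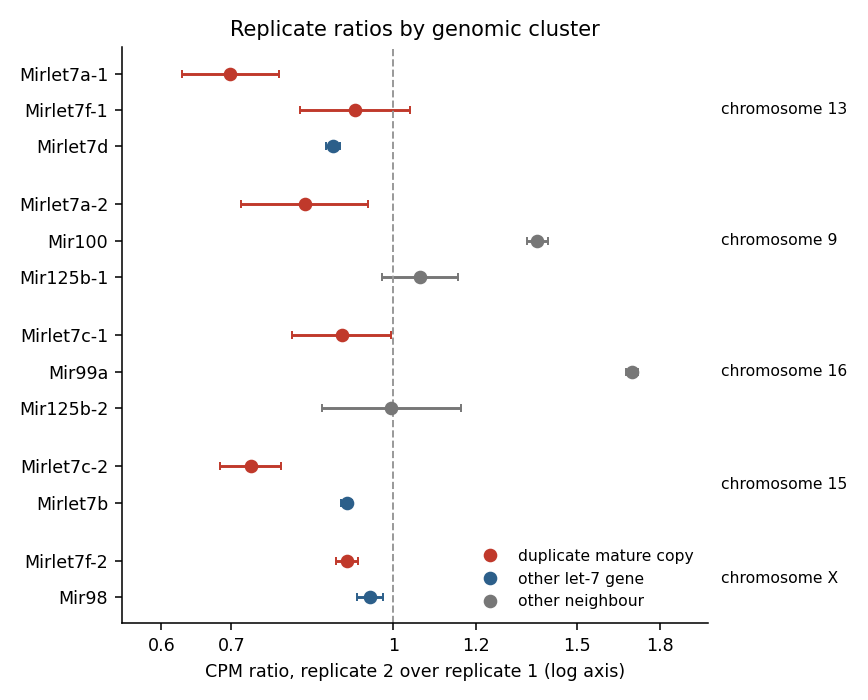
Ratio of CPM in replicate 2 over replicate 1 on a log axis, with 95% counting intervals as bars, for the 6 genes and their same-strand neighbours that had reads, grouped by chromosome. Mir99a (1.69) and Mir100 (1.37) lie above 1, and the let-7 genes beside them, Mirlet7c-1 (0.893) and Mirlet7a-2 (0.823), lie below it.

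Genes of a cluster did not keep a fixed proportion between the libraries. Mir99a was higher in replicate 2, at 17758 against 10499 CPM, a ratio of 1.69 (1.67 to 1.71), while Mirlet7c-1, 656 nt away, was at 188 against 211 CPM. The quotient of Mir99a over Mirlet7c-1 was 1.90 times as large in replicate 2 (95% counting interval 1.70 to 2.11). For Mir100 over Mirlet7a-2 it was 1.67 times as large (1.45 to 1.92). The quotients of Mirlet7d over Mirlet7a-1 (interval 1.13 to 1.40) and of Mirlet7b over Mirlet7c-2 (1.24, 1.15 to 1.32) also differed between the libraries by more than counting error. So did those of Mirlet7f-1 over Mirlet7a-1 (1.32, 1.12 to 1.54) and of Mir125b-1 over Mirlet7a-2 (1.29, 1.10 to 1.51). Those of Mirlet7d over Mirlet7f-1 (0.953, 0.846 to 1.07) and Mir125b-2 over Mirlet7c-1 (1.12, 0.928 to 1.34) did not. For Mir98 over Mirlet7f-2 the quotient was 1.05 times as large (1.01 to 1.09), the smallest difference among those whose interval excluded 1.

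Strand handling decided whether Mirlet7f-1 was seen at all. A microRNA gene annotated on the opposite strand, Gm24111, covers the whole Mirlet7f-1 hairpin. In the column counted without regard to strand Mirlet7f-1 had 0 reads in both replicates, where the same-strand column gave 458 and 676. The unstranded column set 708973 and 1064808 reads aside as ambiguous between genes. The same held for Mirlet7e, covered by Gm25927 on the other strand, with 0 reads unstranded and 9272 and 13232 on its own strand. The other 5 duplicated genes had the same read number in both columns. In the opposite-strand column all 6 had 0 reads in both replicates.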

How the data were processed

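The authors deposited 1 file per library of raw counts of reads for each microRNA gene, made on mm10 with GENCODE M21, per the text deposited beside them. Which aligner and counter made them is not given in the sources used. The column order and the 4 summary lines follow the layout of the aligner STAR, where a multiply aligned read enters no gene's count. Lines that name no gene held 66.6% and 64.6% of reads and stayed out of totals. Column 3 (same strand) was used, because ligated small RNA keeps its strand.

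All 2202 identifiers matched GENCODE M21. CPM is the count divided by the column's total over genes, times 1000000. Shares have exact Clopper-Pearson 95% intervals, replicate ratios have intervals derived from them, and changes of a quotient between neighbours have normal intervals on the log scale. All cover counting error only, since the labels name no molecular identifiers. A count of 0 allows 3 reads. Python 3.11.15, numpy 2.4.6, pandas 2.3.3 and scipy 1.17.1 were used, with edgeR 4.0.16 (TMM) and DESeq2 1.42.0 (size factors) in R 4.3.3 for alternative scalings. The interval script was tested on simulated data.

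All 12 RefSeq hairpins equalled those of GENCODE. The text names the 6 genes, the other 6 of the family, same-strand microRNA genes within 60 kb, the 3 genes nearest in replicate ratio among those averaging at least 100 CPM, and listed pairs of duplicate loci. Members, lists and limits were chosen with earlier results of these data known.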

Additional observations from a re-analysis of the deposited data

How the results depend on the processing

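With unstranded counts, the share of Mirlet7f-1 in the let-7f pair was 0%, its level 0 CPM, 5 of the 6 genes reached 1 CPM, and the 6 genes held 0.639% of assigned reads in place of 0.491%, by construction, since reads on overlapping opposite genes are not counted there. The other pair shares were the same. With all reads of the file as denominator the 6 genes held 0.169%, and with let-7 family reads 3.66%. At thresholds of 0.5, 10 and 100 CPM all 6 genes remained above the limit. With 2 libraries, leaving out either leaves the other's value, given above, and shows nothing more about stability. All 23 alternative replicate ratios stayed below 1, from 0.683 to 0.973. With all reads as denominator 3 of the 6 had an interval below 1, in place of 5. With no filter beyond 1 read in both replicates, 243 of 496 genes were lower in replicate 2 in place of 120 of 260, and 120 in place of 23 had a ratio below 0.8. TMM and DESeq2 scaling moved the 120 to 127 and 124. The order per nt of hairpin was chosen after seeing the data. Windows of 18 to 28 nt gave 377 to 407 single-locus positions. No paired analysis was possible because there is a single group, and no test was run.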

Other observations

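Other microRNAs encoded at a pair of loci were measured in the same way. Of 18 listed pairs, 15 had at least 20 assigned reads in each library, and the same locus was the larger in both libraries for all 15. The larger locus held between 66.2% (Mir29b) and 100% (Mir199a) of the pair's reads as the mean of both libraries, with a median of 79.5%. By that mean, the larger locus of the let-7a pair (63.0%) held a smaller share than in each of these 15, that of the let-7c pair (71.6%) than in 12 and that of the let-7f pair (95.8%) than in 6. The place of let-7a beside Mir29b was not resolved, since in replicate 2 the larger Mir29b locus held 59.6% (exact 95% interval 44.3 to 73.6, 47 reads) and that of let-7a 61.1%. Nor was its place beside Mir138, at 67.5% (60.5 to 73.9) in replicate 1 and 66.6% (62.5 to 70.4) in replicate 2, which overlap the let-7a intervals. The place of let-7c was not resolved beside Mir24, Mir29b, Mir30c and Mir138, whose exact intervals overlap those of let-7c in both replicates. The larger Mir30c locus held 73.0% in replicate 1 and 69.5% in replicate 2, against 73.6% and 69.6% for let-7c. Mir219a (61.6%) was below let-7a in the mean but had fewer than 20 reads in replicate 1. In replicate 2 the larger locus of Mir1a (95.2%) and that of Mir103 (92.1%) held less than that of let-7f (95.7%). In summed level, the let-7f pair (3875 ± 278 CPM, SD, n = 2) was above all 15, whose median was 157 CPM. Mir128, at a mean of 1794 CPM, was above the let-7c pair (708 ± 128 CPM) in both replicates. Mir92 (750 CPM) and Mir16 (733 CPM) were above it in the mean and in replicate 2 but not in replicate 1, where the let-7c pair had 799 CPM, Mir92 713 and Mir16 743. The let-7a pair (330 ± 69.0 CPM) was below 5 of the 15 in the mean, and in replicate 2 it was also below Mir181a (297 against 281 CPM). These shares and sums also rest on reads assigned to 1 place, and the stretch that each pair shares was not compared.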
